A study of Mus musculus with 6 samples.

Results

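The IL1 family genes described here were 10 genes for ligands and receptors, namely the agonists Il1a, Il1b, Il33 and Il18, the antagonist Il1rn, the decoy receptor Il1r2, the signalling receptors Il1r1, Il1rl1 and Il18r1, and the shared subunit Il1rap. The rule that lists them uses names and roles and no measured value, though the genes were chosen with earlier results of these data known. All 10 were found by Ensembl identifier among the 55426 features of the count table. Low counts kept 3 of the 10 out of the tests, so that 7 were among the 16207 features tested with edgeR. In libraries of pancreatic stellate cells (PSCs) kept with tumor organoids, hypoxia went with more mRNA of Il1rap and Il1rl1. Hypoxia also went with less of Il1r1, Il18 and, by a narrow margin, Il1r2. The libraries also held macrophage RNA, whose summed markers were lower in hypoxia, and its part in these results was not tested. Il33 and Il1rn were not called in either direction, Il1a and Il1b were near the limit of counting, and Il18r1 had no read.

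IL1 family cytokines act by joining a ligand-binding receptor to a second receptor chain. IL1A and IL1B bind IL1R1 and IL33 binds ST2, the product of Il1rl1, and both complexes then take up the same accessory protein, the product of Il1rap, to recruit MYD88 and activate NF-kB. IL1RN occupies IL1R1 without signalling, IL1R2 binds IL1 but lacks a signalling domain, and in pancreatic cancer tumor-derived IL1 drives fibroblasts toward an inflammatory state.

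RNA was sequenced from primary PSCs, fibroblast precursors isolated from the pancreas of wild-type C57BL/6 mice. All PSCs were embedded in Matrigel in a transwell insert above organoids of mT3, a mouse pancreatic ductal adenocarcinoma (PDAC) line, so no sample lacked tumor cells in the well. The 3 normoxic samples were kept at 21% O2 and the 3 hypoxic samples at 1% O2, each for 48 h, and the comparison asks how oxygen changes the PSCs of such cocultures. Nothing in the labels says whether the 3 samples of a condition came from separate mice or cell preparations, so the p-values measure the spread between these samples, which may be technical.

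Library totals ran from 24749601 to 25914892 counts in normoxia and from 25847719 to 31925054 in hypoxia, and a floor of 3 counts came to 0.0943 to 0.1217 CPM (counts scaled to library size), which covers counting error only. The libraries held the summed fibroblast markers at 28608 to 35912 CPM in normoxia and 30600 to 35465 CPM in hypoxia, with 2 of the 12 markers called higher (Pdgfra, 568 against 999 CPM, and Pdpn, 215 against 426) and 3 lower (Lum, 4.49-fold, Thy1, 2.01-fold, and Acta2, 1.57-fold). Epcam, which defines the tumor epithelium, had 1 read in 1 library and 0 in the other 5, while the sum of the 9 epithelial markers went from 3.23 to 5.4 CPM to 25.0 to 29.0 CPM, of which Krt19, the only one called, made up 20.6 to 23.9 CPM in hypoxia. Muc1, at 2.57 against 3.83 CPM, was higher in every hypoxic library but under the fold threshold (edgeR adjusted p = 0.0293), Cldn4 and Cldn7 had higher means at under 0.13 CPM, and Epcam, Cdh1, Krt7, Krt8 and Krt18 had lower means in hypoxia. The mesothelial sum of 21.1 to 28.9 CPM against 40.6 to 42.1 was nearly all Wt1, and the other 4 markers (Msln, Upk3b, Lrrn4 and Upk1b) were at most 0.649 CPM in any library, with lower means in hypoxia. The endothelial sum of 8.65 to 13.8 CPM against 13.9 to 19.8 rested on Tek (5.14 against 11.5 CPM, called higher), while Kdr was called lower and Pecam1, Cdh5 and Emcn had lower means and no call. Macrophage markers were present and their sum was lower in hypoxia, with 9 of 15 called lower and 1 higher. Their values are given beside Il1rn, Il1r2 and Il18. Between conditions, edgeR's quasi-likelihood test with Benjamini-Hochberg adjustment called 34.2% of the tested genes at a fold change beyond 1.5 and an adjusted p under 0.05, of which 18.9% of tested genes were higher and 15.3% lower in hypoxia. With the replicate number as a block these shares were 34.4%, 19.0% and 15.4%, by DESeq2 26.6%, 14.8% and 11.8%, and by edgeR with no filter on low counts 23.0%, 12.7% and 10.4%. A call on a single gene is therefore common in this comparison. Of the 7 tested IL1 family genes, 2 were called higher and 3 lower, with a median log2 fold change of -0.06 beside -0.004 for all tested genes. The CPM of 68.9% of tested genes did not overlap between conditions, with 34.9% higher and 34.0% lower in hypoxia, beside 4 of the 7 tested family genes.

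**Figure D1:**
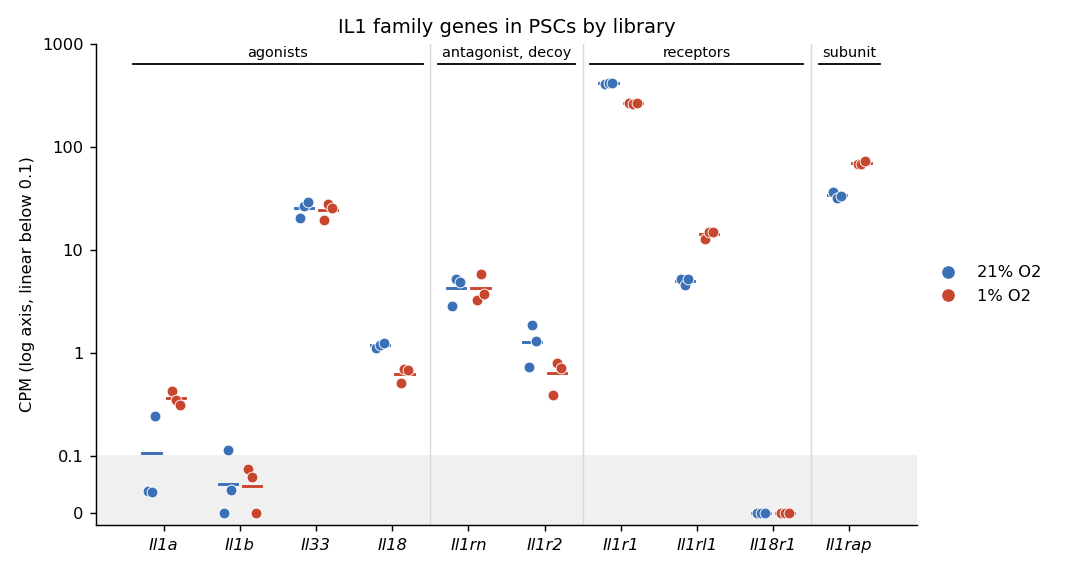
Expression of the 10 IL1 family genes by library, with CPM on a log axis that is linear below 0.1; points are the 3 libraries at 21% O2 and the 3 at 1% O2, and horizontal lines are group means. Il1r1 stood highest, at 411 to 419 CPM in normoxia and 259 to 270 in hypoxia, Il1rap and Il1rl1 were higher in every hypoxic library, and Il1a, Il1b and Il18r1 lay at or under 0.432 CPM.

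Among the agonists, Il1a encodes an alarmin that signals from the cell surface or after release, and is the ligand that tumor cells are known to send to PSCs. In the PSC libraries Il1a (chr2:129299610-129309972, minus strand, GRCm38) had 1, 1 and 6 counts in normoxia and 11, 11 and 10 in hypoxia, which correspond to 0.0385, 0.038 and 0.243 CPM against 0.432, 0.351 and 0.314 CPM. The conditions did not overlap, but 2 of the 3 normoxic libraries were under the 3-count limit. Il1a did not pass the filter on low counts. Over pooled libraries 8 counts stood against 32, a ratio of 3.47 after scaling for depth (exact 95% interval 1.57 to 8.73, counting error only), and the exact two-sided permutation test gave p = 0.1, the smallest that 3 against 3 samples allow. With no filter edgeR gave a log2 fold change of 1.73 and an adjusted p of 0.0416, and DESeq2 gave 1.79 and an adjusted p of 0.11, so the call depended on the tool. In addition, Gm14023, a transcript on the opposite strand, shares 222 bases with the exons of Il1a and had 6, 4 and 3 counts in normoxia and 3, 7 and 9 in hypoxia. Of the tumor epithelial markers Krt19 was called higher, Muc1 was higher in every hypoxic library, and Cldn4 and Cldn7 had higher means. Epcam, Cdh1, Krt7, Krt8 and Krt18 had lower means in hypoxia, Epcam with 0 counts in all 3 hypoxic libraries. The part of tumor RNA in the Il1a counts was not tested. Whether the reads were counted by strand is not given in the sources used here, and reads from the shared bases cannot then be told apart.

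Il1b, the second IL1R1 agonist, which needs cleavage for activity, had 0, 3 and 1 counts in normoxia and 2, 2 and 0 in hypoxia (chr2:129364570-129371139, minus strand). The pooled count was 4 in each condition, a ratio of 0.869 after scaling for depth (exact 95% interval 0.162 to 4.66), and a difference was not detectable at this depth. PSCs in either condition thus held very little mRNA of the 2 ligands of IL1R1.

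Il33, a nuclear alarmin that binds ST2, was the most abundant ligand gene. It was at 20.7, 26.6 and 29.2 CPM in normoxia and 19.6, 27.8 and 25.7 in hypoxia (chr19:29925114-29960718, plus strand). The conditions overlapped throughout, with means of 25.5 ± 4.36 and 24.4 ± 4.25 CPM (SD, n = 3 each). The log2 fold change was -0.06 with a standard error of 0.15, and edgeR gave an adjusted p of 0.74.

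Il18, a cytokine made as a precursor and cleaved by caspase-1, was at 1.12, 1.21 and 1.26 CPM in normoxia and 0.511, 0.702 and 0.691 in hypoxia, from 13 to 32 counts per library (chr9:50554827-50581840, plus strand). All 3 hypoxic libraries were under all 3 normoxic ones. The difference was 1.86-fold lower in hypoxia (log2 fold change -0.90, standard error 0.25, edgeR adjusted p = 0.0114), whereas DESeq2 gave an adjusted p of 0.0568 and no call. In bulk RNA, fewer cells of a type and less RNA per cell cannot be told apart, which holds for Il18 and for every gene below.

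**Figure D2:**
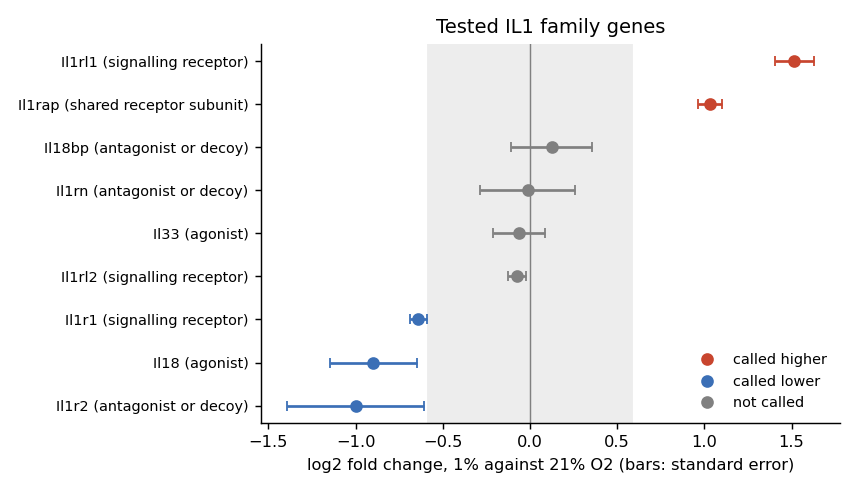
Log2 fold change, 1% against 21% O2, of the 9 tested genes of the IL1 family (7 of the 10 main genes and 2 further family genes), with bars for the standard error and grey shading for changes within 1.5-fold. Il1rl1 at 1.52 and Il1rap at 1.03 were called higher and Il1r1 at -0.64, Il18 at -0.90 and Il1r2 at -0.998 lower, with a much wider bar for Il1r2.

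Il1rn encodes the soluble antagonist of IL1R1. It was at 2.89, 5.24 and 4.87 CPM in normoxia and 3.3, 5.81 and 3.71 in hypoxia (chr2:24336853-24351494, plus strand). The conditions overlapped, the means were 4.33 ± 1.26 and 4.27 ± 1.35 CPM (SD, n = 3 each), and the log2 fold change was -0.01 with a standard error of 0.27 (edgeR adjusted p = 0.968). Libraries of one condition thus differed by far more than the means of the 2 conditions.

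Il1r2 encodes the decoy receptor that takes IL1 away from IL1R1. It was at 0.731, 1.86 and 1.3 CPM in normoxia and 0.393, 0.798 and 0.723 in hypoxia, from 10 to 49 counts per library (chr1:40074079-40125231, plus strand). The lowest normoxic library lay under 1 hypoxic library, so the conditions overlapped. The mean was 2.0-fold lower in hypoxia (log2 fold change -0.998, standard error 0.39, edgeR adjusted p = 0.0499), just inside the threshold, and 9 of 13 other settings lost the call. Leaving out normoxia replicate 2 gave -0.65 (adjusted p = 0.183), normoxia replicate 3 gave -1.01 (0.101), hypoxia replicate 1 gave -0.77 (0.144), hypoxia replicate 2 gave -1.19 (0.0607) and hypoxia replicate 3 gave -1.09 (0.0939), so the decrease of Il1r2 is not firm.

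Il1rn, Il1r2 and Il18 are expressed by macrophages, and the libraries held macrophage RNA. The 15 macrophage and leukocyte markers summed to 1071, 1906 and 1496 CPM in normoxia and 550, 1004 and 675 in hypoxia, 2.01-fold lower on average, with no overlap. Lyz2 made up 54.4% to 61.1% of that sum, and without it the other markers summed to 418, 742 and 613 CPM against 235, 458 and 297, 1.79-fold lower on average and overlapping. Of the 15 markers 9 were called lower and 1, Cd74, higher. Itgam, Cd14, Csf1r and Mrc1 were not called, with log2 fold changes of -0.0015, 0.08, -0.24 and -0.64, and neither was Ptprc. Ptprc, the pan-leukocyte phosphatase, was at 11.1 ± 2.5 and 7.32 ± 2.34 CPM (SD, n = 3 each, edgeR adjusted p = 0.0514). Within each condition the libraries ranked in the same order by Il1rn, by Il1r2 and by the macrophage sum, whereas Il18 followed that order in hypoxia and not in normoxia. Per 1000 CPM of macrophage markers, Il1r2 was at 0.683, 0.976 and 0.868 in normoxia and 0.714, 0.795 and 1.07 in hypoxia (exact permutation p = 0.9) and Il18 at 1.04, 0.637 and 0.841 against 0.928, 0.699 and 1.02 (exact permutation p = 0.8). Both overlapped on this scale. Il1rn moved from 2.7, 2.75 and 3.25 to 5.99, 5.79 and 5.49 per 1000 CPM of markers, 1.99-fold higher with no overlap (exact permutation p = 0.1, the smallest possible). Without Lyz2 in the sum, an alternative added after the data were seen, Il1rn was 1.79-fold higher with no overlap (exact permutation p = 0.1), and Il1r2 and Il18 overlapped, with ratios of hypoxia to normoxia of 0.917 and 0.949. These 3 ratios were chosen after the values were seen, and the part of macrophage RNA in the results for Il1rn, Il1r2 and Il18 was not tested. Neutrophil markers were near 0, with a sum of at most 1.4 CPM.

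**Figure D3:**
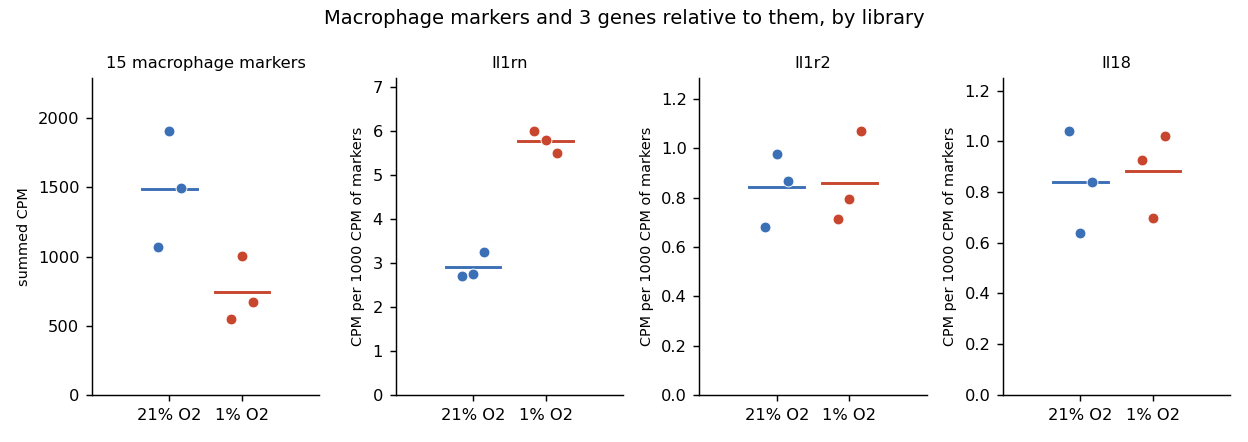
Left, summed CPM of 15 macrophage and leukocyte markers in each library; the other panels give Il1rn, Il1r2 and Il18 per 1000 CPM of those markers, with points for libraries and lines for means. The marker sum was 1071 to 1906 in normoxia and 550 to 1004 in hypoxia, and Il1rn alone of the 3 genes did not overlap between conditions on the ratio scale.

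Il1r1 encodes the receptor that carries the IL1 signal, and it was the most abundant gene of the family. It was at 411, 414 and 419 CPM in normoxia and 270, 259 and 269 in hypoxia (chr1:40225080-40317257, plus strand). The conditions did not overlap and the spread within each was small, with means of 415 ± 3.73 and 266 ± 5.87 CPM (SD, n = 3 each). Il1r1 was 1.56-fold lower in hypoxia (log2 fold change -0.64, standard error 0.051, edgeR adjusted p = 7.69e-06). The call held in all 13 other settings, between -0.66 and -0.63, but lay under 2-fold.

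Il1rl1 encodes ST2, the IL33 receptor, which exists as a membrane form and a soluble decoy that gene-level counts do not separate. It was at 5.24, 4.55 and 5.19 CPM in normoxia and 12.8, 15.1 and 14.9 in hypoxia (chr1:40429570-40465415, plus strand). The conditions were far apart relative to their spread, with means of 4.99 ± 0.382 and 14.3 ± 1.28 CPM (SD, n = 3 each). Il1rl1 was 2.86-fold higher (log2 fold change 1.52, standard error 0.11, edgeR adjusted p = 5.21e-06), and the change stayed between 1.45 and 1.59 in all 13 other settings. Kit, a marker of the mast cells that also carry ST2, moved with it, from 5.51, 3.23 and 5.27 CPM to 13.9, 16.6 and 15.2 CPM (log2 fold change 1.71, edgeR adjusted p = 3.93e-05), and its part in the rise of Il1rl1 was not tested. Of the 10 mast cell, basophil and lymphocyte markers, 2 were called higher, Kit and Mcpt8, and 7 had at most 3 counts in any library, among them Cpa3, Tpsb2, Mcpt4 and Fcer1a. Their sum was 3.83 to 6.62 CPM in normoxia and 15.4 to 18 CPM in hypoxia.

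Il18r1, the IL18 receptor chain, had 0 counts in all 6 libraries, which allows up to 3 counts, or 0.0943 to 0.1217 CPM (chr1:40465552-40500854, plus strand). It starts 136 bases beyond the end of Il1rl1, the gene that was higher.

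Il1rap encodes the accessory chain that IL1R1, ST2 and the IL36 receptor share. It was at 37, 32.2 and 33.3 CPM in normoxia and 67.8, 68.3 and 73.7 in hypoxia (chr16:26581704-26730117, plus strand). No libraries of the conditions overlapped, and the means were 34.2 ± 2.48 and 69.9 ± 3.24 CPM (SD, n = 3 each). Il1rap was 2.05-fold higher (log2 fold change 1.03, standard error 0.068, edgeR adjusted p = 2.42e-06), and the change stayed between 0.99 and 1.09 in all 13 other settings. The antisense gene Gm20319 shares 552 exonic bases with Il1rap, and its 0, 0 and 0 counts in normoxia and 0, 7 and 12 in hypoxia are small beside 821 to 2344 counts of Il1rap.

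Receptor chains work in complexes, so their levels were also compared within each library per kilobase of the longest protein-coding transcript. On this scale the mean order of the 10 genes in normoxia was Il1r1 at 71.2 CPM per kilobase, Il33 at 10, Il1rap at 7.56, Il1rn at 1.75, Il18 at 1.35, Il1rl1 at 0.942, Il1r2 at 0.914, Il1a at 0.054, Il1b at 0.038 and Il18r1 at 0. Of the neighbours in that order Il33 and Il1rap, Il1rn and Il18, Il1rl1 and Il1r2, Il1a and Il1b, and Il1b and Il18r1 overlapped between libraries. Il1rl2, which is not among the 10, lay between Il1r1 and the next gene in both conditions, at 19.9 and 18.9 CPM per kilobase. In hypoxia Il1rap, at 15.5, stood above Il33, at 9.58, and Il1rl1, at 2.69, above Il1rn, at 1.73, and only Il1b and Il18r1 overlapped among neighbours. The reads per kilobase of Il1rap over those of Il1r1 were 0.116, 0.1 and 0.102 in normoxia and 0.324, 0.339 and 0.352 in hypoxia, a 3.19-fold higher mean with no overlap (exact two-sided permutation p = 0.1, the smallest possible). Il1r1 thus remained the more abundant of the pair in every library. Il1rap was higher and Il1r1 lower with no overlap, so the separation of their ratio and its p-value were fixed in advance. With all exons merged as the length, a choice added after the data were seen, the means were 0.0462 and 0.147.

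The ratio of Il1rl1 to Il1r1 rose from a mean of 0.0132 to 0.059, 4.46-fold, with no overlap (exact permutation p = 0.1). This separation was likewise fixed by the opposite, non-overlapping changes of both genes. The ratio of Il33 to its receptor gene Il1rl1 went from 10.7 ± 2.16 to 3.54 ± 0.322 (SD, n = 3 each, exact permutation p = 0.1), while Il33 itself was not called. The ratio of Il1r1 to Il1r2 overlapped between conditions, at 54.3 to 167 across all libraries (exact permutation p = 0.5).

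**Figure D4:**
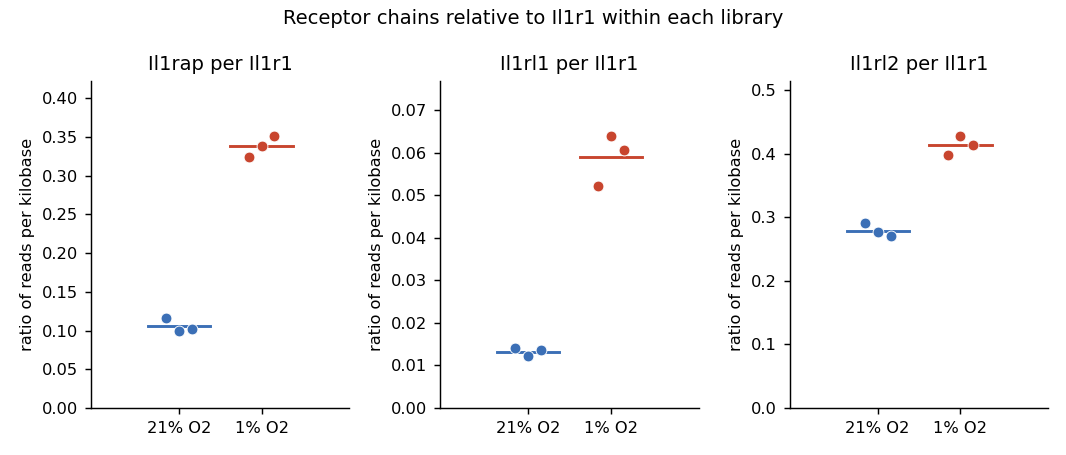
Ratios of reads per kilobase within each library for Il1rap, Il1rl1 and Il1rl2 over Il1r1, with points for the 3 libraries of each condition and lines for means. All 3 ratios were higher in every hypoxic library, by 3.19-fold, 4.46-fold and 1.48-fold on average. Il1r1, the divisor of all 3, was 1.56-fold lower in hypoxia, and Il1rl2 itself was not called (log2 fold change -0.07).

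The start regions of the receptor genes with changes are printed with their matches to a hypoxia motif, as a description of the letters there. Windows of 250 bases before to 50 after the start were taken from RefSeq on GRCm38.p6, 5′ to 3′ on the gene's strand, with the hypoxia response core ACGTG or GCGTG, on either strand, in capitals, and at the second start of Il1r1 also 1 match to the NF-kB consensus, the first run of capitals there. All 10 genes matched, with 17 windows in all, and which start the PSCs used was not determined.

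Il1rap (chr16:26581455-26581754, plus strand): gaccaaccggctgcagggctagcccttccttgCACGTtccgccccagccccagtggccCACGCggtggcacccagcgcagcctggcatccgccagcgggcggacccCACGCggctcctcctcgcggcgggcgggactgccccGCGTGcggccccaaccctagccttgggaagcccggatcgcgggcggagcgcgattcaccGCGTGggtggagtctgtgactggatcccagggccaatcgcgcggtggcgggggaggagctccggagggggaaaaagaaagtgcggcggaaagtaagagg

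Il1r2 (chr1:40085843-40086142, plus strand): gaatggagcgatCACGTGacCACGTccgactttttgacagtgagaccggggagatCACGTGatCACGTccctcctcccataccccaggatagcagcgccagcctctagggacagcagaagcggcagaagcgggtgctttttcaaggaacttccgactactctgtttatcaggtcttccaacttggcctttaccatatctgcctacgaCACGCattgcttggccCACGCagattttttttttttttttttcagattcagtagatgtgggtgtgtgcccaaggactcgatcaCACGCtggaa

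Il1r1, first start (chr1:40224830-40225129, plus strand): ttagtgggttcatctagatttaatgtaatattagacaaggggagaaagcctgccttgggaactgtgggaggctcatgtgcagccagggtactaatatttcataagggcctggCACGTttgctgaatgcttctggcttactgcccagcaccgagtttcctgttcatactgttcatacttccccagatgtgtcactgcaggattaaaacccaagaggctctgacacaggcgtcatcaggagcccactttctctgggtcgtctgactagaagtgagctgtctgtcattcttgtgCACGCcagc

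Il1r1, second start (chr1:40266336-40266635, plus strand): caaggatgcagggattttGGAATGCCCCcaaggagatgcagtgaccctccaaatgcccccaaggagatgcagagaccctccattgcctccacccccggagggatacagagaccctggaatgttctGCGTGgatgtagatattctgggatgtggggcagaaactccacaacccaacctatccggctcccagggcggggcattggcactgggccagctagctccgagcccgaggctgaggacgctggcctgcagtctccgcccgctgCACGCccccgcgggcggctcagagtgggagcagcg

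Il1rl1, first start (chr1:40429320-40429619, plus strand): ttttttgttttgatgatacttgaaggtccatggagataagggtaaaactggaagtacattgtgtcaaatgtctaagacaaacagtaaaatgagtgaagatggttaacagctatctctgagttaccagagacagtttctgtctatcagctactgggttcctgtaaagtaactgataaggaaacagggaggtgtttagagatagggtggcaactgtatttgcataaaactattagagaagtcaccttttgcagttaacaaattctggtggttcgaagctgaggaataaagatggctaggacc

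Il1rl1, second start (chr1:40439379-40439678, plus strand): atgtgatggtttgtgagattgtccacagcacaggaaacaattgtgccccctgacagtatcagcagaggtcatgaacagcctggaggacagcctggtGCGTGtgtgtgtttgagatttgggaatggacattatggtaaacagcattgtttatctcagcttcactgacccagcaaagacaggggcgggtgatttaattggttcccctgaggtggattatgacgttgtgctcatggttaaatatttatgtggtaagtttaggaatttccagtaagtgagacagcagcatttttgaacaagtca

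The core was in 43.8% of all 32851 windows of this length, in 1.66% it matched 5 times or more and in 0.0609% 9 times or more, counting a palindrome on both strands. Il1rap, which was higher in hypoxia, had 5 matches in a GC-rich window (72.0% GC and 33 CpG sites, against medians of 52.7% and 7). Il1r2, whose lower mean was not a firm call, had 9 matches. Il1r1, which was lower, had 2 matches at each of its starts, and Il1rl1, which was higher, had 0 at its first start and 1 at its second. Il1rn had 1 match in 1 of its 3 windows, and the windows of Il33, Il18, Il1a, Il1b and Il18r1 had none. AP-1 (TGANTCA, in 7.81% of windows) matched once in Il1a and once in Il1rn, and the NF-kB consensus (in 4.51%) once at the second start of Il1r1.

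The 6 receptor genes of the family on chromosome 1 lie in 1 run of 477627 bases, in the order Il1r2, Il1r1, Il1rl2, Il1rl1, Il18r1 and Il18rap, all on the plus strand, and no other protein-coding gene lies between them. Along this run Il1r2, by the narrow margin given above, and Il1r1 were called lower, Il1rl2 was not called, Il1rl1 was called higher, Il18r1 had 0 counts and Il18rap, with too few counts to test, was higher in every hypoxic library.

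The rest of the family gave 0 calls among 2 tested genes of 11 listed, with 0 of them at an unadjusted p under 0.05 in edgeR and limma-voom, and 0 of 6 genes in DESeq2. Il1rl2, the IL36 receptor, was at 80.3, 77.1 and 75.9 CPM in normoxia and 72.1, 74.7 and 74.8 in hypoxia. The conditions did not overlap, but the difference was small (log2 fold change -0.07, standard error 0.05, edgeR adjusted p = 0.227). Il18bp, the soluble binding protein of IL18, was at 1.46 to 2.2 CPM and 1.6 to 2.26 CPM (log2 fold change 0.12, edgeR adjusted p = 0.663). Il1f10 had 1 to 12 counts, the inhibitory receptor gene Sigirr 3 or 4, and Il18rap, the IL18 receptor's second chain, 4, 3 and 1 in normoxia and 6, 13 and 8 in hypoxia, which did not overlap. The IL36 ligand genes Il1f6 and Il1f8, the antagonist gene Il1f5 and the Il1rap relatives Il1rapl1 and Il1rapl2 had 0 counts throughout, and Il1f9 had 1 count in 1 library.

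For the proteins that mature and release IL1 ligands, 18 of 20 listed genes were tested, 4 were higher and 2 lower, a share near the 34.2% of all tested genes, with a median log2 fold change of -0.06. Pycard, the ASC adaptor that joins inflammasome sensors to caspase-1, was at 17.3, 18.4 and 16.5 CPM in normoxia and 3.49, 3.83 and 3.87 in hypoxia, 4.65-fold lower with no overlap (edgeR adjusted p = 2.8e-07). Casp4, the non-canonical inflammasome protease, was at 13.4, 13.5 and 13.3 CPM against 38.6, 38.1 and 39.6, 2.89-fold higher (edgeR adjusted p = 1.3e-07). Ninj1, which ruptures the membrane, rose 2.17-fold, Capn1, a calpain subunit that can cleave IL1A precursor, 1.96-fold and Gsdmd, the pore former, 1.59-fold. Nlrp3, an inflammasome sensor, was at 4.27, 7.63 and 4.71 CPM against 2.16, 4.4 and 2.48, which overlapped (log2 fold change -0.87, edgeR adjusted p = 0.0324), and it lost the call without normoxia replicate 2 (adjusted p = 0.11), hypoxia replicate 1 (0.0999) or hypoxia replicate 3 (0.117). Casp1, which cleaves the IL1B and IL18 precursors, was at 4.2 to 8.35 CPM and 5.03 to 6.57 CPM (adjusted p = 0.779). Pycard and Nlrp3 are also expressed by macrophages, whose summed markers were 2.01-fold lower in hypoxia. The part of macrophage RNA in these results was not tested.

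Downstream of the receptors, 31 of 31 signalling genes were tested, 12 were higher and 0 lower, beside 18.9% and 15.3% of all tested genes, with a median log2 fold change of 0.407. The adaptors and kinases next to the receptor gave 1 call of 12, Traf6, at 22.4, 19.5 and 23.8 CPM against 31.7, 41.5 and 38.4 (1.7-fold higher, edgeR adjusted p = 0.000284). Myd88, the adaptor of the whole family, had an adjusted p of 0.0407 but a log2 change of only -0.17, under the fold threshold, and Irak4 had -0.004 (adjusted p = 0.966). Also under the fold threshold at an edgeR adjusted p under 0.05, Irak1, Irak2, Peli1, Tab1 and Tab2 were higher, at log2 changes of 0.17 to 0.43. Ube2n was lower, at -0.38. Of 8 IKK and NF-kB genes 5 were higher, among them Nfkb1 (2.86-fold), Relb (2.73-fold) and Rela (1.67-fold). Of 11 inhibitors 6 were higher, among them Tnfaip3, which removes ubiquitin from the pathway and was at 6.74, 7.86 and 7.02 CPM against 41.4, 49.4 and 46.7, Nfkbia, which holds NF-kB in the cytoplasm (3.07-fold), and Irak3, which blocks IRAK signalling (1.72-fold). At fold changes beyond 1.5, the calls thus lay in the NF-kB and inhibitor groups more than among the adaptors, a description with no test of the difference.

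Among 36 genes known to respond to IL1, 33 were tested, 27 were higher and 2 lower, beside 18.9% and 15.3% of all tested genes, with a median log2 fold change of 1.6. The whole list was chosen with earlier results of these data known, and the study names part of it for these very cultures. The count is therefore not independent evidence. The largest changes were those of Nos2, Csf3, Lcn2 and Ptgs2, at 9.42, 7.26, 4.56 and 4.14 on the log2 scale, with Csf3 at 0.038 to 0.203 CPM in normoxia, where the size of a fold is uncertain. Il6, Cxcl1 and Lif rose by 2.09, 2.72 and 3.5. Against the direction of the list, Vcam1, an adhesion molecule, was 1.89-fold lower and the chemokine gene Cx3cl1 1.61-fold lower. Ptges, a prostaglandin synthase, was at 1.52-fold and lost its call under 5 other settings. Has1 and Tnfaip6 also lost their calls under several settings, among them DESeq2 with a replicate block (adjusted p = 0.112 and 0.0852).

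**Figure D5:**
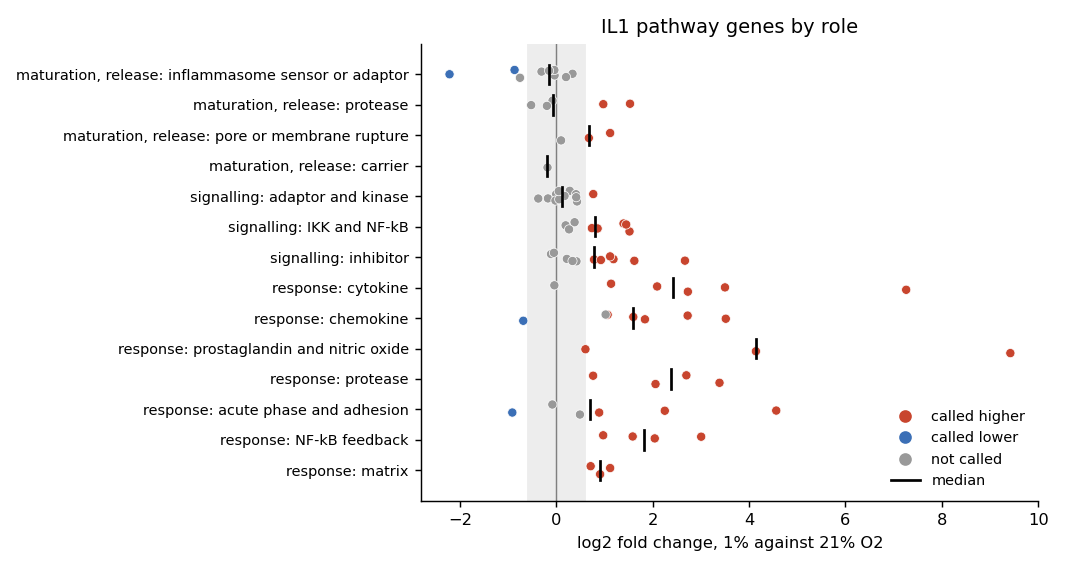
Log2 fold change, 1% against 21% O2, of every tested gene for the maturation and release of IL1 ligands (18 genes), signalling (31) and response (33), grouped by role; each point is a gene, red where called higher, blue lower and grey not called, bars are medians and shading marks changes within 1.5-fold. The signalling adaptors and kinases lie between -0.38 and 0.77 with Traf6 as the only call. IKK and NF-kB genes reach 1.52, inhibitors 2.67 and response genes 9.42.

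The genes whose log2 CPM followed each called member most closely over the 6 samples were Man2a2 (r = 0.9995) and Cenpe (0.9991) for Il1r1, Sestd1 (0.9994) and Gngt2 (0.9993) for Il1rl1, and Dhx40 (0.9992) and Hmga2 (0.9991) for Il1rap. For Il18 they were Nfasc (0.9978) and Adam5 (0.9973), and for Il1r2 Hpca (0.9994) and Ntf3 (0.9971). The share of genes with r above 0.95 was 15.7% for Il1r1, 15.6% for Il1rl1 and 15% for Il1rap, 5.19% for Il18 and 0.625% for Il1r2. For all of these but Il1r2, the points are 2 separate sets of 3 libraries.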

How the data were processed

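RNA from 6 PSC samples, 3 at 21% O2 and 3 at 1% O2, was analysed. Per the labels and methods, the authors mapped poly(A) reads to GRCm38 with STAR 2.6.1b and estimated counts per gene with RSEM 1.3.1. The deposited values are expected counts without scaling between samples, all of them whole numbers. The annotation release and strand setting are not given in the sources used here. Genes were matched to GENCODE M21, in which 55240 identifiers were found and 186 were not. From the counts, edgeR 4.0.16 (R 4.3.3, limma 3.58.1) was used with filterByExpr, TMM scaling and its quasi-likelihood test with Benjamini-Hochberg adjustment over 16207 genes. Genes were called at a fold beyond 1.5 and an adjusted p under 0.05. CPM are counts over the TMM-scaled library size, per kilobase over the longest protein-coding transcript. Standard errors are on the log2 scale. Tests on 3 against 3 values are exact and cannot go below p = 0.1. The fits were tested on simulated data. Replicate libraries differed by more than sampling noise.

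The family members and gene lists were chosen with earlier results of these data known. Named were the 10 members and other family genes with at least 3 counts. From each list, the called genes with the 4 highest and 3 lowest log2 fold changes, by sign, were named. Myd88, Irak4, Casp1, Il6, Cxcl1 and Lif were added. The rule also named the 2 genes most correlated with each called member among those with a mean of at least 1 CPM. Genes named outside that rule were chosen after their values were seen. Alternatives were DESeq2 1.42.0, limma-voom, other scalings, no filter, a replicate block, other fold thresholds and each library left out. The reads were not analysed here.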

Additional observations from a re-analysis of the deposited data

How the results depend on the processing

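Il1rap, Il1rl1 and Il1r1 kept their direction and call under all 13 other settings. Beside 5 members called, edgeR with no filter on low counts called 6, Il1a being added, DESeq2 size factors and limma-voom gave 4, DESeq2 3, DESeq2 with a replicate block 3 and a fold beyond 2 left 2, while leaving out a library gave 4 to 5. Il18 was at -0.91 (adjusted p = 0.0568) by DESeq2 and -0.93 (0.158) with its block, and -0.98 to -0.77 with a library left out. Il1r2 was at -0.996 (0.0504) with DESeq2 size factors, -1.02 (0.0738) by DESeq2, -0.94 (0.0735) by limma-voom, -1.003 (0.118) with the DESeq2 block, and -1.29 to -0.65 with a library left out, where the call was kept only without normoxia replicate 1 (0.0128). Il1rn reversed to 0.0019 by limma-voom and ran from -0.31 to 0.14 with a library left out, and Il33 from -0.20 to 0.071. The maturation list had 6 calls, 10 with no fold threshold, 3 beyond 2-fold and 5 to 8 with a library left out. Signalling had 12, 24 with no threshold, 7 beyond 2-fold and 12 in each fit with a library left out. The response list had 29, 30 with no threshold or with the edgeR replicate block, 21 beyond 2-fold and 26 to 29 with a library left out, and the other family genes stayed at 0 calls. The causes were not tested. Same-numbered samples had deviation correlations of 0.142, 0.139 and 0.038, so the numbers were not taken to pair them, though every sample correlated best with its own number, a hint from the data only. With the replicate block edgeR called 5572 genes in place of 5547 and 5 members, with Il1r2 at an adjusted p of 0.0129 and Il18 at 0.0192. Depth limits Il1b and Il18r1, at no more than 3 counts in any library, and Il1a, with 1 count in 2 of the 3 normoxic libraries.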
